A study of Mus musculus with 24 samples.

Results

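The effect of a short hairpin RNA against Cdk8 on mouse embryonic stem cells (mESCs) that had begun to differentiate in retinoic acid (RA) was measured by poly-A RNA sequencing. The members were chosen by their labels, not by a measured value: all libraries of RA-treated cells with the Cdk8 hairpin and all libraries of RA-treated cells with the control hairpin, 6 of 24 libraries in all. RA shCdk8 (3 libraries) was made from E14TG2a cells that stably carry a hairpin against Cdk8, were moved to medium without leukaemia inhibitory factor (LIF) and were given 1e-06 M all-trans RA for 24 h. RA shNMC (3 libraries) received the same treatment and carries a non-mammalian control hairpin, a hairpin with no target in mammals. RA shMed12 (3 libraries), with a hairpin against the Mediator subunit Med12, is used as a second RA-treated line. The mESC shCdk8, mESC shMed12 and mESC shNMC cells (3 libraries each) are the same hairpin lines kept with serum and LIF. All lines derive from E14TG2a, a feeder-free mESC line from a blastocyst of the 129/Ola strain. The number of hairpins and clones behind each line is not given in the sources used here. RA addition and LIF removal went together in every treated library, so their effects cannot be told apart. The labels do not say that libraries of one group came from separate cultures, so p-values measure the spread between these samples only. In bulk RNA, fewer cells of a type and less RNA per cell cannot be told apart.

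Mediator is the large complex that carries signals from DNA-bound transcription factors to RNA polymerase II. Cdk8, or its paralogue Cdk19, forms with cyclin C, Med12 and Med13 a kinase module that binds Mediator reversibly and phosphorylates transcription factors, Mediator subunits and other proteins of the transcription machinery. The module can hold Mediator apart from RNA polymerase II and can also take part in activation, and Cdk8 is known for phosphorylating SMADs, SREBP and the Notch intracellular domain. In mESCs Mediator occupies enhancers of pluripotency genes together with Oct4, Sox2 and Nanog. RA binds its nuclear receptors, switches on retinoid metabolism genes and the 3′ Hox genes, and moves mESCs out of the pluripotent state.

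The 6 RA libraries held between 45909570 and 57320128 reads assigned to genes and between 17905 and 18228 genes with a read. Levels are in CPM, the reads of a gene for each 1000000 reads of its library's scaled total, and carry no length correction, so levels are compared between libraries and not between genes. Changes are log2(RA shCdk8 / RA shNMC) with their standard error (SE). A gene was called when its p-value from edgeR's quasi-likelihood test, adjusted by Benjamini-Hochberg over all 16280 genes tested, was below 0.05. This fit took its spread from all 24 libraries. They include mESC control and mESC shRing1b (3 libraries each, the latter with a hairpin against Ring1b), which enter no comparison here. In these, 20% to 21.7% of counts were reads with several alignments, against 44.1% to 48.4% in the 6 RA libraries. Without these groups 3792 genes were called, against 1259 with them. Same-numbered RA shCdk8 and RA shNMC libraries deviated together, so a paired fit of the 6 libraries with the replicate number as a block is given where it changes a call or a count by over 1.5 times. The first principal component over the 500 most variable genes held 62.9% of the variance. RA shCdk8 lay at 19.5, 20.2 and 15.6 on it and RA shNMC at 12.6, 13.1 and 6.34, while mESC shCdk8 lay from -22.1 to -21.1 and mESC shNMC from -27.2 to -25.7. The third library was the lowest of its group in both RA groups. Without the third library of both groups, an alternative chosen after seeing the data, 256 genes were higher and 193 lower with the Cdk8 hairpin.

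Cdk8 mRNA was strongly lowered by its hairpin. Cdk8, the kinase itself, was at 12.4, 9.04 and 8.21 CPM in the 3 RA shCdk8 libraries, against 48.1, 46.0 and 42.6 CPM in the 3 RA shNMC libraries. The groups were far apart, with means of 9.90 ± 2.24 and 45.6 ± 2.74 CPM (SD, n = 3 each), a log2 change of -2.20 (SE 0.15) and an edgeR adjusted p of 2.5e-08. The depletion was of the same order before RA, at 12.8 ± 2.26 CPM in mESC shCdk8 and 53.4 ± 3.06 CPM in mESC shNMC (SD, n = 3 each). The difference between the log2 changes after and before RA was -0.14 and was not called.

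The other 6 genes of the kinase module were not called. Cdk19, the paralogous kinase, was at 63.3, 64.3 and 63.6 CPM in RA shCdk8 and at 75.4, 75.6 and 80.1 CPM in RA shNMC, a log2 change of -0.27 (SE 0.11, edgeR adjusted p = 0.12). Its 3 RA shCdk8 libraries lay below all 3 RA shNMC libraries, and the paired fit called it lower (edgeR adjusted p = 0.0001). Med12, the subunit that activates the kinase, changed by 0.14 on the log2 scale (edgeR adjusted p = 0.67), and its libraries overlapped, with 116, 135 and 142 CPM in RA shCdk8 against 94.1, 120.4 and 144 CPM in RA shNMC. The paired fit called Med12, Med12l and Med13 higher (edgeR adjusted p = 0.037, 0.0015 and 0.039). The cyclin Ccnc and Med13l had log2 changes of 0.00 and -0.04, so the module as measured lost Cdk8 mRNA without a rise of Cdk19 mRNA. Among 26 genes of core Mediator, Med14, a backbone subunit, was the only one called, at 124, 139.7 and 129 CPM in RA shCdk8 against 97.9, 105 and 100.2 CPM in RA shNMC (log2 change 0.38, SE 0.11, edgeR adjusted p = 0.034). That call was lost when any of the 6 libraries was left out (adjusted p up to 0.16, without the second RA shCdk8 library). In the paired fit 5 core subunits were higher and 8 lower, all within a log2 change of -0.40 to 0.38. That fit called 23.9% of all genes higher and 25.3% lower, and the fit over all libraries 4.10% and 3.64%.

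Across all genes the Cdk8 hairpin moved transcripts in both directions by modest amounts. Of 16280 genes tested, 667 (4.10%) were called higher and 592 (3.64%) lower in RA shCdk8. The paired fit called 3883 (23.9%) higher and 4113 (25.3%) lower, and the 1259 genes of the first count were all among them with the same direction. The median size of a called change was 0.617 on the log2 scale, 958 called genes changed by less than 2-fold, and 193 rose and 108 fell by 2-fold or more. Nearly all called genes (1252, 99.4%) had no overlap between the 3 RA shCdk8 and the 3 RA shNMC libraries. The same held for 6002 of all genes tested (36.9%), so lack of overlap adds little to a call. When each library was left out in turn, between 482 genes (without the second RA shCdk8 library) and 880 genes (without the third RA shCdk8 library) were called, and 414 of the 1259 kept their call in all 6 of these fits.

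**Figure D1:**
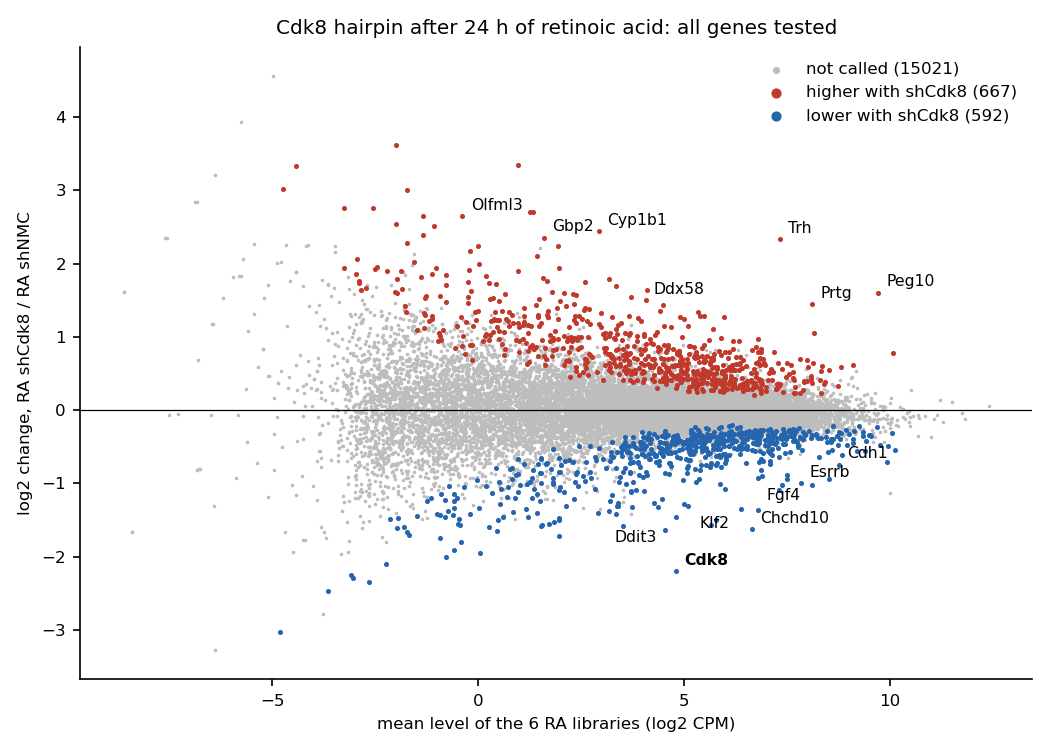
Log2 change between RA shCdk8 and RA shNMC (vertical axis) against the mean level of each gene in the 6 libraries in log2 CPM (horizontal axis); each point is a gene, 667 called higher and 592 called lower are coloured. Called genes lie on both sides of 0 at all but the lowest levels, and Cdk8 is among the lowest points at its level; 3 genes with no read in the 6 libraries are not drawn.

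The largest rises among genes at 5 CPM or more were spread over hormone, interferon and imprinted genes. Trh, which encodes the precursor of thyrotropin-releasing hormone, stood at 305, 245 and 255 CPM in RA shCdk8 against 62.8, 57.2 and 40.1 CPM in RA shNMC (log2 change 2.33, SE 0.28, edgeR adjusted p = 3.4e-05). Cyp1b1, a cytochrome P450 that can also oxidise retinoids, was at 15.7, 16.7 and 6.09 CPM in RA shCdk8 against 2.86, 3.16 and 1.04 CPM in RA shNMC (log2 change 2.45, SE 0.34, edgeR adjusted p = 0.00015). Both groups had their lowest Cyp1b1 level in the third library. Lack of overlap between the groups was a condition for the largest rises and falls, so it adds no support to them. Peg10, an imprinted gene of retrotransposon origin and also among the largest rises, was at 1221, 1437 and 1115 CPM in RA shCdk8 against 472, 507 and 264 CPM in RA shNMC (log2 change 1.6, SE 0.30, edgeR adjusted p = 0.0021). Hsd11b2, which inactivates glucocorticoids, rose by 1.94 (edgeR adjusted p = 0.00017), Csn3, a milk casein, by 1.78, Klhdc7a by 1.69 and Fgfbp1, a carrier of fibroblast growth factors, by 1.74 on the log2 scale. Il33, an alarmin cytokine, was at 26.0, 26.7 and 24.8 CPM in RA shCdk8 against 9.38, 8.89 and 6.61 CPM in RA shNMC (log2 change 1.64, SE 0.33, edgeR adjusted p = 0.0039). The 12 largest rises also held the interferon-inducible GTPases Gbp2, Gbp7 and Irgm1, described with their group. Fgfbp1 lost its call in 3 of the 6 fits that left out a library (edgeR adjusted p up to 0.073, without the third RA shNMC library).

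The largest falls after Cdk8 itself held genes of mitochondria, the stress response and early cleavage. Chchd10, a protein of the mitochondrial intermembrane space, was at 46.7, 38.0 and 62.0 CPM in RA shCdk8 against 141, 131 and 180.3 CPM in RA shNMC (log2 change -1.62, SE 0.19, edgeR adjusted p = 1.8e-05). Pdha2, the testis form of a pyruvate dehydrogenase subunit, was at 2.41, 1.53 and 1.49 CPM in RA shCdk8 against 6.22, 5.56 and 6.13 CPM in RA shNMC (log2 change -1.72, edgeR adjusted p = 0.00069). The groups were apart in both genes, which was a condition of their choice. Nphs1, the slit-diaphragm protein nephrin, fell by 1.5 and its relative Kirrel2 by 1.42 on the log2 scale, and the gap junction gene Gjb1 by 1.38. Kbtbd11 fell by 1.57, Insm1, a zinc-finger factor of neuroendocrine cells, by 1.48 and Dcc, a netrin receptor, by 1.5 on the log2 scale. The calls of Kbtbd11, Insm1, Dcc and Kirrel2 were lost without one or another library (edgeR adjusted p up to 0.15 for Dcc, without the first RA shNMC library). Tcstv3 belongs to the 2-cell-like list and Ddit3 to the stress list, and both are described there with Zscan4a, which is in neither.

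The lowest p-values included genes of matrix and surface proteins. Sulf1, an enzyme that trims heparan sulfate and alters growth factor binding, was at 88.9, 93.0 and 85.3 CPM in RA shCdk8 against 39.7, 37.8 and 33.1 CPM in RA shNMC (log2 change 1.27, SE 0.10, edgeR adjusted p = 1.3e-07). Prtg, a receptor-like protein of the early neural and mesodermal embryo, was at 414, 427 and 361 CPM in RA shCdk8 against 159.6, 157 and 125 CPM in RA shNMC (log2 change 1.45, SE 0.12, edgeR adjusted p = 1.3e-07). Within each gene the 3 libraries of a group lay close together compared with the gap between the groups, which a choice by lowest p-value favours. Fbn2, a fibrillin of the extracellular matrix, rose by 1.33, Arhgef7, an exchange factor for Rac and Cdc42, by 0.83, and the secreted protein Olfml3, under 0.25 CPM in each RA shNMC library, by 2.65 on the log2 scale. These genes, and the Cdk8 fall, kept their calls without each of the 6 libraries.

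**Figure D2:**
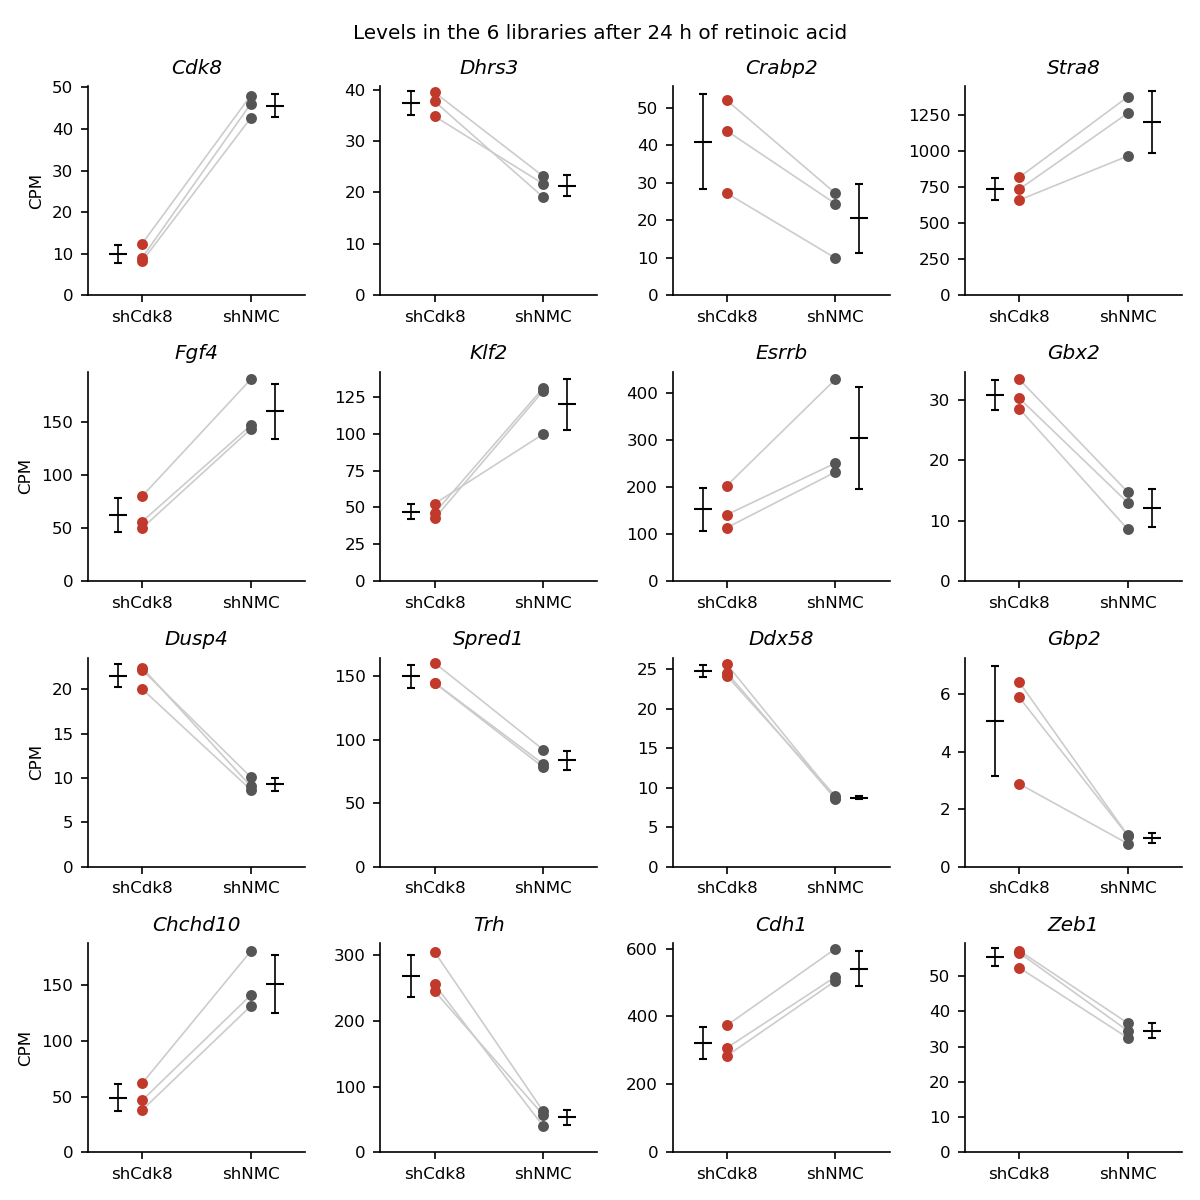
CPM of 16 genes (vertical axes, from 0) in the 3 RA shCdk8 libraries (red) and the 3 RA shNMC libraries (grey); thin lines join same-numbered libraries, and the bars beside the points are the mean ± SD (n = 3). In each of the 16 panels all 3 lines run in one direction; Cdk8 averaged 9.90 CPM in RA shCdk8 and 45.6 CPM in RA shNMC.

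The retinoid pathway changed member by member, not as a block. Of 25 genes tested, 5 rose and 3 fell, beside 4.10% and 3.64% of all genes. The median log2 change was 0.02, beside 0.00 for all genes tested. The paired fit called 12 higher and 9 lower, beside 23.9% and 25.3% of all genes. Those that rose handle retinoids inside the cell. Crabp2, which carries RA to its receptors, was at 52.0, 43.9 and 27.2 CPM in RA shCdk8 against 27.2, 24.4 and 9.91 CPM in RA shNMC (log2 change 1.0, edgeR adjusted p = 0.021), so the lowest RA shCdk8 library met the highest RA shNMC library. Dhrs3, a reductase that turns retinal back into retinol, was at 39.5, 34.8 and 37.7 CPM in RA shCdk8 against 23.2, 21.7 and 19.1 CPM in RA shNMC, without overlap (log2 change 0.81, SE 0.17, edgeR adjusted p = 0.0045). Its relative Rdh11 rose by 0.70 on the log2 scale (edgeR adjusted p = 0.0054) and the retinoid X receptor Rxrg by 0.97 (edgeR adjusted p = 0.022). Stra8, a direct RA target needed for meiosis, was at 819.7, 736 and 662 CPM in RA shCdk8 against 1379.6, 1266 and 968 CPM in RA shNMC (log2 change -0.70, SE 0.18, edgeR adjusted p = 0.018). The RA receptor Rarg fell by 0.45 and Crabp1, another RA carrier, by 0.59 on the log2 scale. The benchmark RA targets gave no call: Cyp26a1, which degrades RA, was at 271, 263 and 237 CPM in RA shCdk8 against 362, 377 and 259 CPM in RA shNMC (log2 change -0.38, edgeR adjusted p = 0.35), and the receptor Rarb changed by -0.08. The paired fit called Cyp26a1 lower (edgeR adjusted p = 0.0042). Stra8, Rarg, Rxrg, Crabp2 and Crabp1 each lost the call without at least 1 library (edgeR adjusted p up to 0.19, for Rarg and Crabp1 without the second RA shCdk8 library). Crabp1 lost it in all 6 such fits.

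Genes that RA moved in the Med12 line were also looked up, as sets defined outside this comparison. They had a called change of at least 2-fold between RA shMed12 and mESC shMed12. On the first principal component mESC shMed12 already lay at 20.1, 19.4 and 14.9, above every RA shNMC library. The sets may therefore differ from the genes that RA moves in the control line. Of 1565 genes induced there, 123 (7.86%) were higher and 28 (1.79%) lower in RA shCdk8 than in RA shNMC, and 33.6% and 13.4% in the paired fit. Of 468 genes repressed there, 30 (6.41%) were higher and 67 (14.3%) lower, and 18.4% and 35.7% in the paired fit. The shares over all genes tested were 4.10% higher and 3.64% lower, and in the paired fit 23.9% higher and 25.3% lower.

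The Hox genes, which RA switches on from the 3′ ends of their clusters, differed in sign by position in the paired fit. The fit over all libraries called only Hoxd10 among 38 tested (lower, at 0.265, 0.324 and 0.255 CPM in RA shCdk8 against 0.751, 0.781 and 0.764 CPM in RA shNMC, log2 change -1.43, edgeR adjusted p = 0.024, lost without any one of the 6 libraries). The paired fit called 9 of the 38 higher and 16 lower, beside 23.9% of all genes higher and 25.3% lower. For the list as a whole, the number called higher was thus near the share of all genes. In the fit over all libraries 3.64% of all genes were lower. When the genes were put into 2 groups after their values were seen, 12 of 15 genes of paralogue groups 1 to 5 had a positive log2 change (median 0.32), and the paired fit called 9 of them higher and 1, Hoxd1, lower. Of 23 genes of paralogue groups 6 to 13, 22 had a negative log2 change (median -0.46), and the paired fit called 15 lower and none higher. Hoxa3 stood at 32.7, 27.4 and 25.4 CPM in RA shCdk8 against 20.4, 19.7 and 17.4 CPM in RA shNMC (paired edgeR adjusted p = 4.4e-06). Hoxb1, a direct RA target, was at 55.5, 57.2 and 37.0 CPM in RA shCdk8 against 47.0, 43.0 and 21.6 CPM in RA shNMC, with overlapping groups (log2 change 0.43, edgeR adjusted p = 0.32; paired edgeR adjusted p = 0.0051). At the other end Hoxd13 was at 4.50, 4.98 and 4.08 CPM in RA shCdk8 against 8.94, 9.71 and 9.09 CPM in RA shNMC (log2 change -1.03, edgeR adjusted p = 0.092; paired edgeR adjusted p = 6.2e-07). Many of the 5′ genes were under 1 CPM, as Hoxd10 was.

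**Figure D3:**
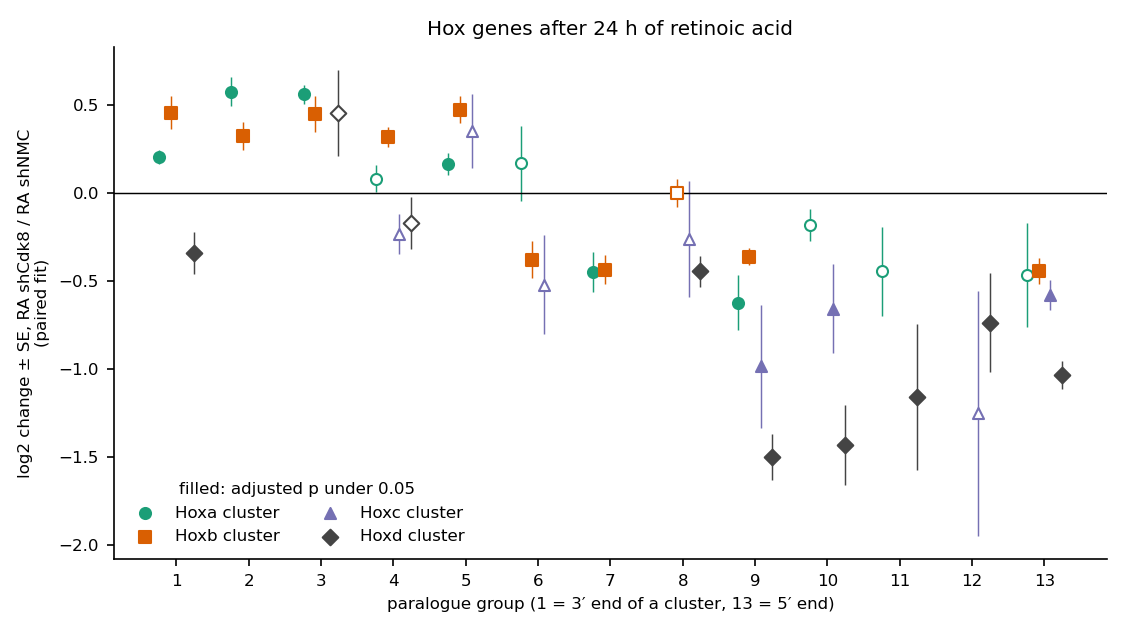
Log2 change ± SE between RA shCdk8 and RA shNMC in the paired fit (vertical axis) of Hox genes by paralogue group (horizontal axis, 1 at the 3′ end of a cluster and 13 at the 5′ end), with a marker for each cluster and filled markers for an adjusted p under 0.05. Filled markers lie above 0 in groups 1 to 5, except Hoxd1, and below 0 in groups 6 to 13.

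Many pluripotency genes were lower in RA shCdk8 than in RA shNMC. Of 29 tested, 14 fell and 2 rose, with a median log2 change of -0.39, beside 3.64% of all genes lower and 4.10% higher. The paired fit called 20 lower and 3 higher, beside 25.3% and 23.9% of all genes. The core factors fell by under 2-fold: Pou5f1 (Oct4) was at 319.7, 289 and 402 CPM in RA shCdk8 against 412, 417 and 498 CPM in RA shNMC (log2 change -0.39, SE 0.12, edgeR adjusted p = 0.041), and Sox2 at 348, 378 and 377 CPM in RA shCdk8 against 459, 481 and 472 CPM in RA shNMC (log2 change -0.36, SE 0.08, edgeR adjusted p = 0.0053). Nanog, which sustains self-renewal, was at 14.2, 12.7 and 18.5 CPM in RA shCdk8 against 20.6, 24.4 and 29.1 CPM in RA shNMC (log2 change -0.71, SE 0.17, edgeR adjusted p = 0.012). None of these overlapped between the groups, as in 99.4% of all called genes. Larger falls were seen in Klf2, a Krüppel-like factor of the naive state, at 46.2, 42.5 and 52.4 CPM in RA shCdk8 against 131, 129 and 99.8 CPM in RA shNMC (log2 change -1.35, SE 0.14, edgeR adjusted p = 4.7e-06). Fgf4, the growth factor by which mESCs drive their own differentiation, was at 56.0, 49.9 and 80.0 CPM in RA shCdk8 against 147, 143 and 190.1 CPM in RA shNMC (log2 change -1.37, SE 0.15, edgeR adjusted p = 5.6e-06). Esrrb, Prdm14 and Zfp42 (Rex1), markers of the naive state, fell by 0.99, 0.92 and 0.90 on the log2 scale. Gbx2, which rose against the list, was at 33.5, 30.3 and 28.6 CPM in RA shCdk8 against 14.8, 13 and 8.59 CPM in RA shNMC (log2 change 1.35, SE 0.24, edgeR adjusted p = 0.0014). Between 6 and 13 members fell when single libraries were left out. Pou5f1, Nanog, Klf4, Nr0b1, Nr5a2, Dppa2, Tdgf1 and Tet2 each lost the call in some of these fits (edgeR adjusted p up to 0.24, for Pou5f1 without the second RA shCdk8 library). Of 16 genes of LIF and Stat3 signalling, 1 rose, the receptor subunit Il6st (log2 change 0.41), and none fell; the paired fit called 8 higher and 3 lower.

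Markers of the next states moved in both directions. Of 14 genes of the primed, epiblast-like state, 2 rose and 3 fell, and 6 rose and 6 fell in the paired fit. Of all genes, 4.10% rose and 3.64% fell, and 23.9% and 25.3% in the paired fit. Cdh2 (N-cadherin) was at 13.8, 15.5 and 11.1 CPM in RA shCdk8 against 5.75, 5.95 and 5.03 CPM in RA shNMC (log2 change 1.27, SE 0.21, edgeR adjusted p = 0.0008), and the zinc-finger factor Sall2 rose by 1.13. Zic2, a factor that binds enhancers in the primed state, was at 28.1, 28.7 and 28 CPM in RA shCdk8 against 56.7, 60.6 and 44.8 CPM in RA shNMC (log2 change -0.94, SE 0.15, edgeR adjusted p = 0.00057). Otx2, an epiblast and forebrain factor, fell by 1.3 and Lef1, a nuclear effector of Wnt, by 1.39 on the log2 scale. Of 12 neural genes, Sox1, the earliest neural plate marker, was at 15.1, 15.3 and 14 CPM in RA shCdk8 against 8.60, 8.72 and 7.56 CPM in RA shNMC (log2 change 0.84, edgeR adjusted p = 0.033). The neuronal tubulin Tubb3 fell by 0.70 on the log2 scale. The paired fit called 2 neural genes higher and 4 lower. Otx2, Lef1, Sox1 and Tubb3 each lost the call without at least 1 library (edgeR adjusted p up to 0.14, for Tubb3 without the second RA shCdk8 library). Lef1 and Sox1 lost it in all 6 such fits.

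Of the fibroblast growth factor (FGF) and ERK pathway, 7 genes, most of them feedback genes, were higher while the ligand Fgf4 was lower. Of 22 genes tested, 7 rose and 1 fell, beside 4.10% and 3.64% of all genes, with a median log2 change of 0.33. The paired fit called 12 higher and 2 lower, beside 23.9% and 25.3% of all genes. In each fit without a single library 6 rose. Spred1, an inhibitor of Ras signalling, was at 145, 161 and 145 CPM in RA shCdk8 against 78.4, 92.2 and 80.9 CPM in RA shNMC (log2 change 0.84, SE 0.12, edgeR adjusted p = 0.00021). Il17rd (Sef), a membrane antagonist of FGF receptors, was at 141, 165 and 145 CPM in RA shCdk8 against 89.7, 97.9 and 90.8 CPM in RA shNMC (log2 change 0.70, SE 0.09, edgeR adjusted p = 3.6e-05). Dusp4, a phosphatase of ERK, was at 20, 22.5 and 22.2 CPM in RA shCdk8 against 8.69, 9.09 and 10.1 CPM in RA shNMC (log2 change 1.21, edgeR adjusted p = 0.0039). No RA shCdk8 library overlapped the RA shNMC libraries for these antagonists, as in 99.4% of all called genes. The ERK phosphatase Dusp6 rose by 0.68, the inhibitor Spry2 by 0.45, the ETS factor Etv1 by 1.02 and the receptor Fgfr1 by 0.29 on the log2 scale, the last losing its call without any one of the 6 libraries (edgeR adjusted p up to 0.15, without the third RA shCdk8 library). Other feedback genes gave no call, with log2 changes of 0.13 for Spry4, 0.20 for Etv4, -0.13 for Etv5 and -0.05 for Spry1. In the paired fit Etv4 was called higher and Etv5 lower. Of 25 immediate early genes, Dusp4 and Dusp6 rose and Nr4a1 fell by 0.45 on the log2 scale. Nr4a1 lost the call in 2 of the 6 fits that left out a library (edgeR adjusted p up to 0.082, without the second RA shCdk8 library). Fos and Egr1, with changes of -0.25 and -0.26, were not called. The paired fit called 6 higher and 9 lower, with Egr1 among those lower.

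The interferon-inducible genes that were called were all higher, with the immunity GTPases in front. These genes are switched on by STAT and IRF factors through short DNA elements in their promoters, the interferon-stimulated response element (ISRE) and the gamma-activated site (GAS). Of 29 listed genes tested, 6 rose and none fell, beside 4.10% and 3.64% of all genes, with a median log2 change of 0.36. The paired fit called 13 higher and 3 lower, beside 23.9% and 25.3% of all genes. Between 3 and 6 rose when single libraries were left out. Promoters of 4 genes that rose are shown with their matches to the ISRE letters GAAANNGAAA, read on both strands, in capitals. They are 300 bases long, from 250 bases before to 50 after the gene start, on the strand of the gene, from RefSeq on GRCm38.p6; the counts were made on another build. Ddx58 lies at chr4:40239776-40240075 (minus strand), Gbp2 at chr3:142620413-142620712 (plus), Irgm1 at chr11:48871371-48871670 (minus) and Igtp at chr11:58199306-58199605 (plus).
Ddx58: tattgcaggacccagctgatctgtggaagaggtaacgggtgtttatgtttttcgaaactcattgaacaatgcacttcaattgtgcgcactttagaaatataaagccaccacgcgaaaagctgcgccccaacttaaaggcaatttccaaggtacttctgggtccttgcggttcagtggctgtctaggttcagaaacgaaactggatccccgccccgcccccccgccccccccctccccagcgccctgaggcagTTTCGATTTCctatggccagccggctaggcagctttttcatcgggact
Gbp2: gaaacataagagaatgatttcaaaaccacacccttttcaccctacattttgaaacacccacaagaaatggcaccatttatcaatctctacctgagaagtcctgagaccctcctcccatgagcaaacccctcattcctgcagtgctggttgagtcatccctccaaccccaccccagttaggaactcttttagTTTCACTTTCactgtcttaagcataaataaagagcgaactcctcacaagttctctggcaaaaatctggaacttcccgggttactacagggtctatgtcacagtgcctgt
Irgm1: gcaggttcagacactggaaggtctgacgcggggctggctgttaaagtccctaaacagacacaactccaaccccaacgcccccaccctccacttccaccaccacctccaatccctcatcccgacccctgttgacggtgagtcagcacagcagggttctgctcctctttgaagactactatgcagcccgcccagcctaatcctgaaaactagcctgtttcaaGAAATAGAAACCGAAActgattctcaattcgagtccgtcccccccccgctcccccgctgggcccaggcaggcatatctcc
Igtp: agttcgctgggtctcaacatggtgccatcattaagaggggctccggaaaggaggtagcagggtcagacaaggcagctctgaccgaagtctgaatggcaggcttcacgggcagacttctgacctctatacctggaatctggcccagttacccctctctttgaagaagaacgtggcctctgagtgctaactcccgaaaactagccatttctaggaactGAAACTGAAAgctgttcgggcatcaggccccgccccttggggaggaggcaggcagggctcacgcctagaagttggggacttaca
In Gbp2, Irgm1 and Igtp the match began 59, 30 and 34 bases before the gene start, and Irgm1 held 2 overlapping matches. In Ddx58 it began at position 2 after the start.

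Of all 27025 genes with a promoter in the table, 3.99% held the ISRE letters, and of the tested genes that could be matched to it, 3.45%. Of 22 matched interferon genes 14 held them (63.6%): 3 of the 6 that rose (Ddx58, Gbp2 and Gbp3) and 11 of the 16 matched genes that did not rise. The GAS letters TTCNNNGAA, which read the same on both strands, were in 9.55% of all promoters and in 6 of the 22 interferon genes (27.3%). A match is a description of the letters only.

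Ddx58 (RIG-I), a sensor of viral RNA, was at 25.6, 24.5 and 24.1 CPM in RA shCdk8 against 8.70, 8.57 and 8.92 CPM in RA shNMC (log2 change 1.5, SE 0.12, edgeR adjusted p = 1.3e-07). Oasl2, an oligoadenylate synthetase relative, was at 6.98, 7.60 and 7.58 CPM in RA shCdk8 against 2.72, 2.61 and 2.09 CPM in RA shNMC (log2 change 1.58, SE 0.29, edgeR adjusted p = 0.002). Irf1, a transcription factor of the response, was at 51.8, 48.1 and 42.4 CPM in RA shCdk8 against 31.4, 30.6 and 23.8 CPM in RA shNMC (log2 change 0.73, edgeR adjusted p = 0.022). These 3 separated the groups without overlap, as did 99.4% of all called genes. Tlr3, a sensor of double-stranded RNA, rose by 1.21. The classical markers gave no call, with log2 changes of 1.12 for Ifih1, 0.67 for Isg15, 0.04 for Stat2, -0.30 for Irf7 and -0.90 for Mx1. In the paired fit Ifih1 was called higher and Mx1 lower.

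The guanylate-binding proteins (Gbp) and immunity-related GTPases (Irg), which act on membranes of intracellular pathogens, were gathered after their values were seen. Of 10 tested, 8 rose and none fell, beside 4.10% and 3.64% of all genes, with a median log2 change of 1.71. The paired fit called 9 higher, beside 23.9% of all genes. Gbp2 was at 6.42, 5.89 and 2.88 CPM in RA shCdk8 against 1.09, 1.08 and 0.801 CPM in RA shNMC (log2 change 2.35, SE 0.35, edgeR adjusted p = 0.00028). Irgm1 was at 6.81, 7.20 and 4.98 CPM in RA shCdk8 against 1.5, 1.85 and 0.670 CPM in RA shNMC (log2 change 2.24, edgeR adjusted p = 0.0027). Igtp was at 8.40, 8.07 and 5.68 CPM in RA shCdk8 against 2.97, 2.59 and 2.59 CPM in RA shNMC (log2 change 1.44, SE 0.26, edgeR adjusted p = 0.0013). Every RA shCdk8 library was above every RA shNMC library in these 3 genes. For Gbp2 and Irgm1 this was a condition of their choice among the largest rises. The third RA shCdk8 library was the lowest of its group in each of the 3 genes. Gbp1, Gbp3, Gbp4, Gbp7 and Irgm2 rose by 2.71, 1.93, 1.8, 1.62 and 1.42 on the log2 scale. All 6 of the GTPases that rose and could be matched held the ISRE letters (Gbp2, Gbp3, Gbp7, Igtp, Irgm1 and Irgm2), 3 of them the GAS letters as well. The 2 GTPases that did not rise could not be matched, so this gives no comparison with GTPases that did not rise. Gbp2 and Gbp3 were already counted among the interferon genes. These families have near-identical copies, so single members are uncertain. Gbp3, Gbp4, Irgm2, Irf1 and Tlr3 each lost the call without at least one library (edgeR adjusted p up to 0.1, for Irf1 without the third RA shNMC library). Before RA, none of the 29 listed interferon genes was called, while of the 10 GTPases Gbp1 was called higher (log2 change 2.01, edgeR adjusted p = 0.028).

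Cholesterol genes rose as far as they were called. Of 26 genes of cholesterol synthesis and uptake, 4 rose and none fell, beside 4.10% and 3.64% of all genes. The median log2 change was 0.23. The paired fit called 16 higher and none lower, beside 23.9% and 25.3% of all genes. Between 1 and 4 rose when single libraries were left out. Sc5d, a late enzyme of the synthesis, was at 30.9, 37.6 and 32.4 CPM in RA shCdk8 against 22.7, 25.6 and 23.8 CPM in RA shNMC, without overlap (log2 change 0.48, SE 0.13, edgeR adjusted p = 0.021). It lost the call in 3 of the 6 fits that left out a library (edgeR adjusted p up to 0.14, without the second RA shCdk8 library). The sterol response letters TCACNCCAC, searched on both strands, were found in 1 of 18 matched promoters of the list (Hmgcs1), and in 1.44% of all promoters.

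Genes of the integrated stress response, in which Atf4 drives amino acid synthesis and stress genes, gave calls in one direction only. Of 21 tested, 4 fell and none rose, beside 3.64% of all genes lower and 4.10% higher, with a median log2 change of -0.32. The paired fit called 15 lower and 2 higher, beside 25.3% and 23.9% of all genes. Between 0 and 3 fell when single libraries were left out. Ddit3 (CHOP), the stress factor, was at 10.2, 8.95 and 14.5 CPM in RA shCdk8 against 25.4, 25.4 and 53.7 CPM in RA shNMC (log2 change -1.63, SE 0.43, edgeR adjusted p = 0.021). Nupr1, another stress-induced regulator, was at 40.0, 31.5 and 44.6 CPM in RA shCdk8 against 80.5, 63.6 and 89.3 CPM in RA shNMC (log2 change -1.01, SE 0.22, edgeR adjusted p = 0.0075). The groups did not overlap, as in 99.4% of all called genes, and the third library was the highest of each group in both genes. The serine synthesis enzymes Psat1 and Psph fell by 0.45 and 0.55 on the log2 scale. Atf4 mRNA changed by -0.28 without a call (edgeR adjusted p = 0.15), and the paired fit called it lower. Each of the 4 called genes lost its call without at least 1 library, the highest edgeR adjusted p being 0.15, for Psph without the second RA shCdk8 library. Psph lost it in all 6 such fits.

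Imprinted genes, expressed from one parental copy, moved in both directions. Of 22 tested, 4 rose and 3 fell, beside 4.10% and 3.64% of all genes, with a median log2 change of 0.27. The paired fit called 12 higher and 5 lower, beside 23.9% and 25.3% of all genes. Besides Peg10, the maternally expressed non-coding RNAs Meg3, Rian and Mirg of one imprinted domain rose by 0.80, 0.80 and 0.99 on the log2 scale, with Meg3 at 164, 150.03 and 129 CPM in RA shCdk8 against 89.2, 87.5 and 78.5 CPM in RA shNMC. The growth-restricting genes Phlda2 and Cdkn1c fell by 0.96 and 0.74, and the non-coding RNA H19 by 0.97. Phlda2 was at 22.1, 18.3 and 23.4 CPM in RA shCdk8 against 43.2, 41.5 and 39.2 CPM in RA shNMC (edgeR adjusted p = 0.002). Phlda2 and Peg10 kept their calls without each single library; the other 5 lost theirs in at least one such fit (edgeR adjusted p up to 0.14, for Cdkn1c without the second RA shNMC library).

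Adhesion genes moved in both directions. Of 20 genes, 3 rose and 3 fell, beside 4.10% and 3.64% of all genes, with a median log2 change of 0.03. The paired fit called 6 higher and 8 lower, beside 23.9% and 25.3% of all genes. The 6 higher include the epithelial genes Tjp1 and Grhl2 (log2 changes of 0.15 and 0.28 in that fit). Cdh1 (E-cadherin), the epithelial cadherin, was at 284, 308 and 374 CPM in RA shCdk8 against 505, 517 and 599 CPM in RA shNMC (log2 change -0.75, SE 0.11, edgeR adjusted p = 0.00018). Zeb1, a repressor of E-cadherin, was at 52.4, 56.7 and 57.3 CPM in RA shCdk8 against 32.5, 34.5 and 36.7 CPM in RA shNMC (log2 change 0.68, SE 0.13, edgeR adjusted p = 0.0027). Its relative Zeb2 was at 19.1, 21.1 and 17.2 CPM in RA shCdk8 against 9.56, 11.0 and 9.31 CPM in RA shNMC (log2 change 0.94, edgeR adjusted p = 0.0029). With Cdh2, already given among the primed genes, these 4 were separated without overlap, as were 99.4% of all called genes. The polarity gene Crb3 and the epithelial splicing factor Esrp1 fell by 1.25 and 0.87 on the log2 scale. Esrp1 lost the call in 5 of the 6 fits that left out a library (edgeR adjusted p up to 0.12, without the second RA shCdk8 library). Vim, Fn1 and Snai1, usual mesenchymal markers, had log2 changes of 0.15, -0.07 and -0.01 and were not called.

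Markers of other cell types gave calls only in the fibroblast and smooth muscle list and the blood and endothelial list. Of all genes, 4.10% were higher and 3.64% lower, and 23.9% and 25.3% in the paired fit. Summed levels of the fibroblast and smooth muscle list lay between 1581 and 2195 CPM in RA shCdk8 and between 1567 and 2436 CPM in RA shNMC; 4 of its 18 tested genes rose and none fell, and the paired fit called 8 higher and 2 lower. The actin Acta2 and the collagen Col3a1 were near 0: Acta2 was at 0.810, 0.788 and 0.823 CPM in RA shCdk8 against 0.0536, 0.177 and 0.186 CPM in RA shNMC, and Col3a1 had 12 reads in RA shCdk8 against 1 read in RA shNMC, 11.3 times as many per read sequenced (95% interval from counting error, 1.67 to 483). The matrix genes Col6a1 and Lox rose by 0.98 and 1.23 on the log2 scale, while the fibroblast-defining Lum stayed at 0.0309 CPM or less and Dcn at 0.0186 CPM or less. All 4 calls were lost in at least 1 fit without a library (edgeR adjusted p up to 0.17, for Acta2 without the first RA shNMC library). Acta2 and Lox lost theirs in all 6 such fits. The part of such cells in the rises of Cdh2, Zeb1 and Zeb2 was not tested. Extraembryonic endoderm genes summed to between 1910.0 and 1997 CPM in RA shCdk8 against 1438 to 1521 CPM in RA shNMC; none of 24 was called, while the paired fit called 16 higher and 1 lower, and the median log2 change was 0.41. Gata6 and Gata4, which define that lineage, had log2 changes of 0.82 and 0.13, and the paired fit called Gata6 higher. None of 18 primitive streak or 14 trophectoderm genes was called (2 higher and 3 lower, and 4 higher and 3 lower, in the paired fit). Of 10 blood and endothelial genes 1 rose, the angiopoietin receptor Tek, with the leukocyte marker Ptprc at 0.0196 CPM or less. In the paired fit 4 of that list were higher and 2 lower.

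Genes of the 2-cell-like state, a rare state of mESC cultures that resembles the early embryo, also gave calls in one direction only. Of 15 tested, 3 fell and none rose (Tcstv1, Tcstv3 and AF067063), beside 3.64% of all genes lower, with a median log2 change of -1.23. The paired fit called 14 lower, beside 25.3% of all genes. Between 0 and 6 fell when single libraries were left out. Tcstv3 was at 17.5, 17.1 and 10.2 CPM in RA shCdk8 against 48.3, 50.9 and 24.0 CPM in RA shNMC (log2 change -1.46, SE 0.33, edgeR adjusted p = 0.0089). Zscan4a, which is not in the list but among the largest falls, was at 6.25, 6.2 and 4.82 CPM in RA shCdk8 against 19.6, 20.8 and 11.6 CPM in RA shNMC (log2 change -1.59, edgeR adjusted p = 0.019). The list summed to between 47.3 and 75.8 CPM in RA shCdk8 against 90.0 to 189 CPM in RA shNMC. Before RA its median log2 change was -1.21, with 1 call lower. The members come in near-identical copies, and all 4 named calls were lost without at least one library (edgeR adjusted p up to 0.1, for Tcstv1 without the first RA shNMC library).

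Polycomb genes, which keep developmental genes silent, were named in the study's title and changed in single members. Of 21 genes of Polycomb complex 1, 2 rose (Kdm2b and Phc2) and 3 fell, with Phc1, a polyhomeotic subunit, at 237, 217 and 303 CPM in RA shCdk8 against 464, 448 and 544 CPM in RA shNMC (log2 change -0.94, SE 0.16, edgeR adjusted p = 0.001). Of 11 genes of complex 2, Rbbp7 rose, Mtf2 fell, and the accessory subunit Aebp2 was at 185, 187 and 199 CPM in RA shCdk8 against 257, 282 and 295 CPM in RA shNMC (log2 change -0.55, SE 0.07, edgeR adjusted p = 8.2e-05). The methyltransferase Ezh2 changed by -0.11 without a call, and the paired fit called it lower. The paired fit called 4 higher and 8 lower in complex 1, and 2 higher and 6 lower in complex 2. Of all genes, 4.10% were higher and 3.64% lower, and 23.9% and 25.3% in the paired fit. Kdm2b, Phc2, Rybp, Pcgf6, Rbbp7 and Mtf2 each lost the call without at least 1 library (edgeR adjusted p up to 0.18, for Rbbp7 without the third RA shNMC library). Phc2 lost it in all 6 such fits.

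In other signalling and housekeeping lists single members were called, with the largest shares in the Nodal and activin and the Wnt lists. Of all genes tested, 4.10% were higher and 3.64% lower, and 23.9% and 25.3% in the paired fit. Of 15 Nodal and activin genes, the effector Smad3 rose by 0.53 and the ligand subunit Inhbb, the coreceptor Tdgf1 and the convertase Pcsk6 fell by 1.31, 0.58 and 0.53 on the log2 scale (9 higher and 4 lower in the paired fit). Of 24 BMP genes, 1 rose, Smad5, by 0.24, and the paired fit called 13 higher and 2 lower; the target Id1 had a log2 change of 0.11. Of 21 Wnt targets, Sp8 and Lgr5 rose by 1.04 and 1.66, Tcf7l1 and Lef1 fell by 0.48 and 1.39, and the usual readout Axin2 had a log2 change of 0.10 (6 higher and 6 lower in the paired fit). Of 21 Notch genes, the target Hes1 rose by 0.63 and Rfng, which modifies Notch receptors, fell by 0.58, while the paired fit called 4 higher and 10 lower. Among 28 cell cycle genes Cdk6 and Ccnb2 rose by 0.76 and 0.23 and E2f2 fell by 0.44, and the paired fit called 3 higher and 17 lower. Of 23 p53 targets and CDK inhibitors, Cdkn1c and Pmaip1 fell (3 higher and 8 lower in the paired fit), and of 20 germline genes Sohlh2 rose and Hormad1 fell (5 higher and 11 lower). Of 15 histone genes 1 fell, Hist1h3c (0 higher and 5 lower), and none of 18 hypoxia or 16 glycolysis genes was called (4 higher and 4 lower, and 2 higher and 3 lower). Hist1h3c, Pcsk6, Tdgf1, Inhbb, Smad5, Lgr5, Lef1, Hes1, Cdk6, Ccnb2, E2f2, Pmaip1, Cdkn1c, Sohlh2 and Hormad1 each lost the call without at least 1 library (edgeR adjusted p up to 0.24, for Hist1h3c without the second RA shNMC library). Lef1, E2f2 and Hormad1 lost it in all 6 such fits.

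**Figure D4:**
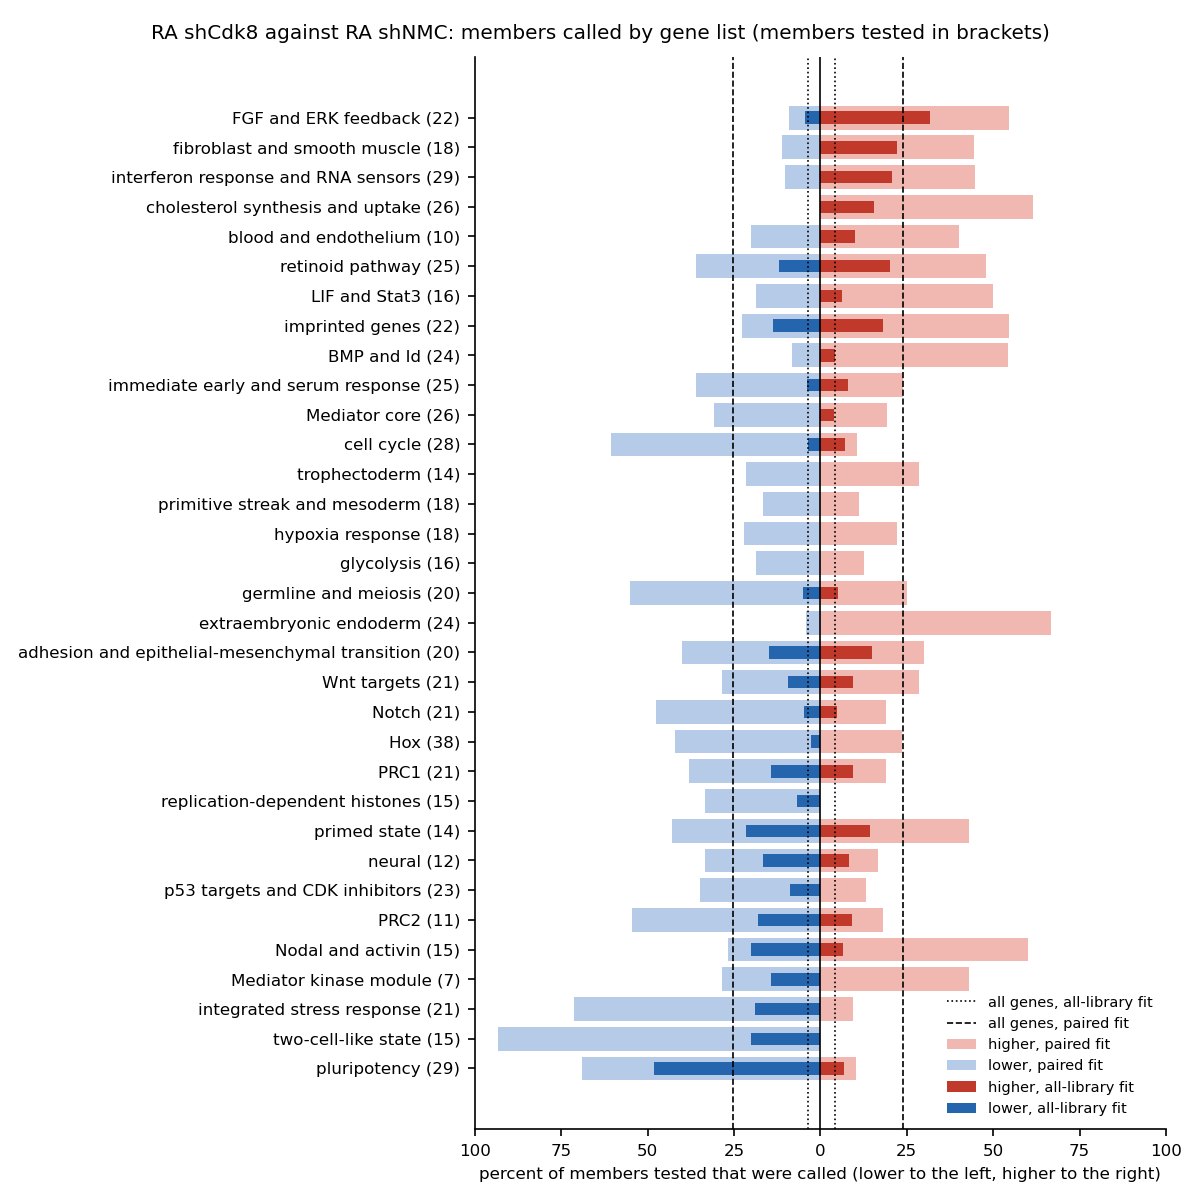
Percent of the tested members of each gene list called lower (blue, to the left) and higher (red, to the right) in RA shCdk8 than in RA shNMC; dark bars are the fit over all libraries and pale bars the paired fit, with dotted and dashed lines at the share of all genes in each (4.10% higher and 3.64% lower; 23.9% higher and 25.3% lower). Pluripotency has the longest dark bar to the left (14 of 29) and FGF and ERK feedback the longest to the right (7 of 22).

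The same hairpin before RA gave fewer calls. In cells with LIF, 365 of 16280 genes (2.24%) were called higher and 231 (1.42%) lower in mESC shCdk8 than in mESC shNMC. Of the RA calls, 211 higher genes were also called higher before RA (31.6% of the RA calls and 57.8% of the mESC calls) and 146 lower genes lower (24.7% and 63.2%), and none was called in opposite directions. The test of the difference between the hairpin's change after RA and before it called 5 genes with a more positive change after RA (0.0307%) and 1 with a more negative one (0.00614%). Ddx58, at 102 ± 3.75 CPM in mESC shCdk8 and 78.7 ± 7.82 CPM in mESC shNMC (SD, n = 3 each), changed by 1.5 after RA against 0.37 before it on the log2 scale (difference 1.13, SE 0.17, edgeR adjusted p = 0.0058). Sulf1, at 79.4 ± 2.32 CPM in mESC shCdk8 and 70.2 ± 6.57 CPM in mESC shNMC, changed by 1.27 after RA and by 0.18 before it (difference 1.09, SE 0.14, edgeR adjusted p = 0.0016). Klf2 was the one in the other direction, at 159 ± 18.8 CPM in mESC shCdk8 and 162 ± 31.2 CPM in mESC shNMC, with a change of -1.35 after RA and -0.03 before it (difference -1.32, SE 0.20, edgeR adjusted p = 0.0058). These 3 were called in every fit that left out one of the 12 libraries. Pcdh1, a protocadherin, Il17rd and Ptpn13, a tyrosine phosphatase, had differences of 1.36, 0.68 and 0.79 (edgeR adjusted p = 0.0345, 0.0407 and 0.0407) and lost their calls in 9, 11 and 12 of those 12 fits. A lack of call here does not show that the changes were equal: 493 genes had an unadjusted p under 0.05 in this test. As a group the pluripotency list had a median log2 change of -0.39 after RA and -0.10 before it, with 1 call lower before RA, and the FGF and ERK list 0.33 after RA and -0.02 before it, with 1 call higher before RA. The difference of a whole list was not tested.

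**Figure D5:**
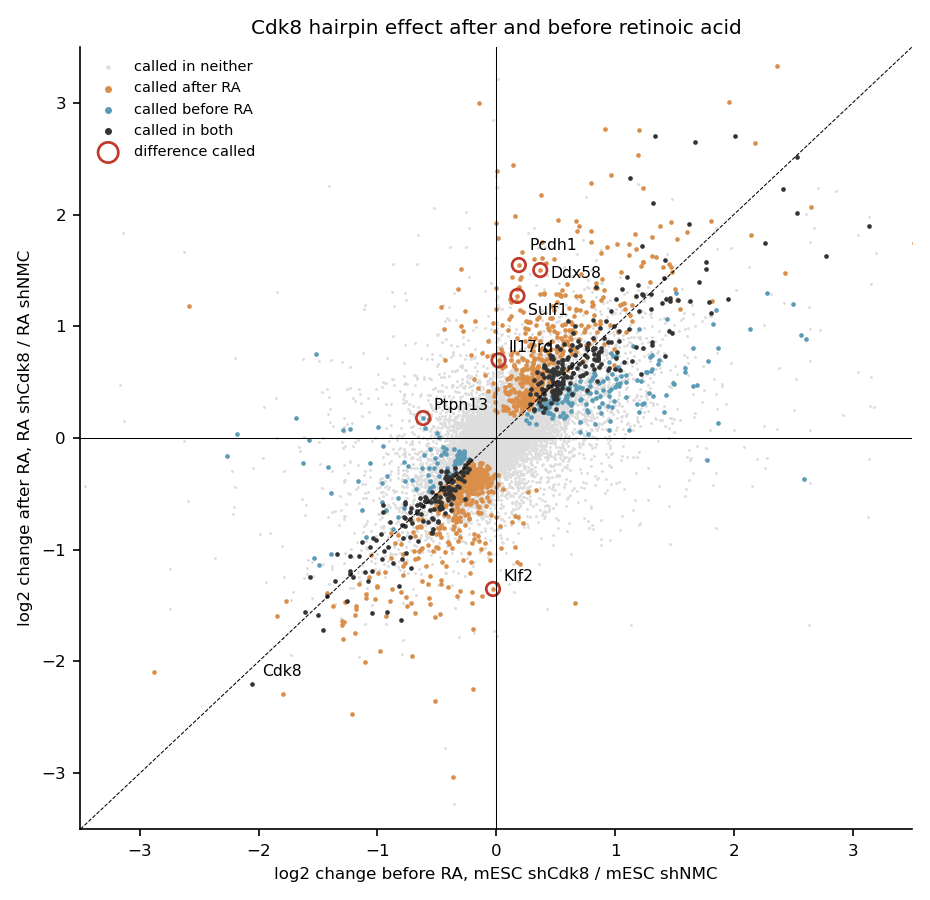
Log2 change with the Cdk8 hairpin after RA (vertical axis) against the change before RA (horizontal axis); each point is a gene, coloured by where it was called, the dashed line marks equal changes, and rings mark the 6 genes whose difference was called. Cdk8 lies near the dashed line at -2.20 and -2.06, while Sulf1, Ddx58, Pcdh1 and Il17rd lie above 0 near the vertical axis and Klf2 below it; 11 genes lie outside the drawn range.

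Set against the Med12 line after RA, the Cdk8 line gave more calls than against the control line. Of 16280 genes, 3277 (20.1%) were higher and 3470 (21.3%) lower in RA shCdk8 than in RA shMed12. Each hairpin lowered its own target: Cdk8 was lower by 2.28 and Med12 higher by 1.43 on the log2 scale in RA shCdk8 than in RA shMed12 (edgeR adjusted p = 4.1e-10 and 5.2e-07), and Cdk19 differed by 0.23 without a call. RA shMed12 lay at 44.1, 44.3 and 41.2 on the first principal component and mESC shMed12, without RA, at 20.1, 19.4 and 14.9, above all 3 RA shNMC libraries. Gbp1 and Gbp2, raised by the Cdk8 hairpin against the control, were lower by 3.06 and 2.93 in RA shCdk8 than in RA shMed12, whereas Gbp4 was higher by 1.73. Zeb1, Sox2, Gbx2 and Trh were higher by 2.38, 1.27, 1.54 and 2.23, and Peg10 and Cdh1 lower by 1.94 and 1.6 on the log2 scale. Klf2 differed by -0.15 (edgeR adjusted p = 0.40), so no difference between the lines was detected for it. Acta2 and Col3a1 were far lower in RA shCdk8 than in RA shMed12, by 5.55 and 6.67 on the log2 scale. Other matrix genes were not: Col6a1 and Lox differed by 0.04 and -0.62 without a call (edgeR adjusted p = 0.91 and 0.16). Fbn2 was higher by 1.41 in RA shCdk8 (edgeR adjusted p = 5.1e-08).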

How the data were processed

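Strand-specific poly-A libraries were read at 50 bp, per the labels' protocols. The deposited files hold raw read counts per gene, 1 file per library, with no normalization by the authors seen in the values. The submitters' processing notes name bcl2fastq 1.8.4, STAR 2.3.1z13, SAMtools 1.2, HTSeq 0.6.1p1, DESeq2 1.6.3 and the mm9 build, with no role given; the strand setting of the counting is not given in the sources used here, so overlapping antisense genes are uncertain. The files list 22609 genes and 5 entries that name no gene, which were left out. In the 6 libraries compared, reads with several alignments were 44.1% to 48.4% of all counts in a file, reads outside genes 9.87% to 10.8% and ambiguous reads 0.118% to 0.126%; genes with near-identical copies lose such reads.

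Counts were fitted with edgeR 4.0.16 (R 4.3.3, limma 3.58.1): filterByExpr by group left 16280 genes, TMM scaling, 1 mean for each of 8 groups over all 24 libraries, a robust quasi-likelihood test with 16 residual degrees of freedom and Benjamini-Hochberg adjustment. The common biological coefficient of variation was 0.145. A level of 3 reads, the floor used for low genes, was 0.0463 to 0.0588 CPM; floors and counting intervals cover counting error only. Principal components used log2(CPM + 0.5). No replicate pair agreed within sampling noise (chi-square per gene between 9.16 and 51.3). The fits were tested on simulated counts.

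Deviations of same-numbered RA shCdk8 and RA shNMC libraries correlated at 0.666, 0.433 and 0.682, and those of other numbers at -0.611 to 0.203, so the numbers were taken as pairs; this comes from the data, not from the labels.

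The text names the 7 kinase module genes, the 12 largest rises and falls (adjusted p below 0.05, 5 CPM or more in a group, groups apart), the 8 lowest p-values, the called differences between states, up to 4 members per list with 2 or more calls, and Pou5f1, Nanog, Sox2, Cyp26a1, Rarb and Hoxb1; unnamed gene models, histones and pseudogenes were left out of the largest changes. Other list members were named after their values were seen. The members and the 33 gene lists were chosen with earlier results of these data known; 10 listed symbols are not in the files. Alternatives were DESeq2 size factors, no filter on low counts, DESeq2 1.42.0, 18 or 6 libraries, the replicate block and leaving out each library. The 18 libraries leave out the mESC control and mESC shRing1b groups. Promoters came from a RefSeq table on GRCm38.p6, matched by symbol. Some results are not reported here.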

Additional observations from a re-analysis of the deposited data

Results flagged for a closer look

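The change that the Cdk8 hairpin brought after RA differed from the change it brought before RA in 6 genes, by edgeR's test of that difference over all genes. Sulf1 differed by 1.09 on the log2 scale (edgeR adjusted p = 0.0016), Ddx58 by 1.13 (adjusted p = 0.0058) and Klf2 by -1.32 (adjusted p = 0.0058). Over the 12 fits that left out one library each, the edgeR adjusted p stayed between 0.0028 and 0.0113 for Sulf1, between 0.0115 and 0.0331 for Ddx58 and between 0.0023 and 0.0435 for Klf2. Pcdh1 differed by 1.36 (edgeR adjusted p = 0.0345): it was at 19.3, 21.7 and 18.2 CPM in RA shCdk8 against 6.85, 7.17 and 6.18 CPM in RA shNMC, and averaged 4.68 CPM in mESC shCdk8 and 4.12 CPM in mESC shNMC. Without the second RA shCdk8 library its adjusted p was 0.16. Il17rd differed by 0.676 and Ptpn13 by 0.794 (edgeR adjusted p = 0.041 each), with adjusted p up to 0.19 for both when a library was left out. Ptpn13 was the only one of the 6 with a called change before RA, at a mean of 37.4 CPM in mESC shCdk8 and 57.3 CPM in mESC shNMC (log2 change -0.62, edgeR adjusted p = 0.0017). After RA it was at 94.7, 106 and 97.4 CPM in RA shCdk8 against 87.0, 88.5 and 88.0 CPM in RA shNMC (log2 change 0.18, edgeR adjusted p = 0.31). The paired fit called Ptpn13 higher after RA (edgeR adjusted p = 0.0034).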

How the results depend on the processing

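Size factors from DESeq2 and no filter on low counts kept the count of calls within 1.5 times in all 4 comparisons. For RA shCdk8 against RA shNMC, the 1259 calls became 3792 over 18 libraries, 2744 over the 6 libraries without a block, 7996 with the replicate block, 1831 with DESeq2, 482 to 880 when single libraries were left out and 449 without the third library of both groups. For mESC shCdk8 against mESC shNMC the 596 calls became 2639 over 18 libraries, 1147 with DESeq2 and 167 to 282 when single libraries were left out. For the difference between the states the 6 calls became 61 over 18 libraries, 27 with DESeq2 and 3 to 6 when single libraries were left out. For RA shCdk8 against RA shMed12 the 6747 calls became 5218 to 5906 when single libraries were left out. In these 3 comparisons the numbers were not shown to pair the samples (correlations of -0.121, 0.272 and 0.589 in mESC and 0.486, 0.000779 and 0.497 against RA shMed12), and a replicate block gave 4185, 572 and 10616 calls. The cause of these differences was not tested. Of 110 named genes 100 were called, all of them also with the replicate block, and 7 more passed with it; 49 lost the call without at least one library. Signs turned round only in 4 genes without a call when a library was left out: Med13l ranged from -0.209 to 0.133, Ccnc from -0.0926 to 0.0748, Med12 from -0.0104 to 0.291 and Rarb from -0.205 to 0.00901. Depth limits the 5′ Hox, GTPase and smooth muscle genes, many of which were at a few CPM or less.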
